A study of Mus musculus with 8 samples.

Results

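The earliest liver response to a growth hormone (GH) pulse was examined by comparing livers taken 30 min after GH with untreated livers, gene by gene, over exons and over introns. All 24197 genes of the authors' table entered, and 4 of the study's 8 libraries. Both groups were male CD-1 mice, an outbred strain, whose pituitary had been removed at 7 weeks of age and whose livers were taken at 11 weeks. The treated mice were injected once into the peritoneum with recombinant rat GH, 125 ng for each g of body weight, and killed 30 min later. The controls are called untreated in the study's design text, while the treatment protocol mentions a vehicle injection. If the controls were not injected, GH and the injection itself cannot be told apart. Each group is 2 RNA pools, and the legend gives 4 mice to a pool, so that spread between pools understates spread between mice. Since the pituitary is gone, the other pituitary hormones are missing in both groups.

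GH binds a receptor on hepatocytes that activates the kinase JAK2, which phosphorylates the transcription factor STAT5. STAT5 then enters the nucleus and switches on genes such as Igf1, Socs2 and Cish within minutes. Spliced mRNA of a long-lived transcript changes slowly after its gene is switched on or off, because the old mRNA must first be made or decay. Introns are removed and degraded soon after they are copied, so intronic reads follow unspliced, newly made RNA more closely. The libraries here were made from poly-A RNA, and how far their intronic reads reflect newly made RNA was not tested. Pck1, G6pc and Tat, the enzymes of glucose production and tyrosine breakdown, and Igfbp1, an IGF-binding protein, are textbook genes of the fasting liver and are repressed by insulin and growth factor signalling.

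The 2 measures come from separate reads. A total of 201 genes in the authors' deposited table were at 0 over the gene body in both groups while their introns were above 0, so the gene body value counts exonic reads. The authors' deposited table gives mean FPKM, reads scaled to length and to library size, for each group. Because every mean is a sum of whole reads in 2 libraries, the reads of each library could be rebuilt (17539 of 17541 genes over the gene body and 15771 of 15772 over introns). Per-library values below are these rebuilt values. The labels do not tell which library is pool 1 and which is pool 2, and libraries are called by size and given in the order larger, smaller. Totals were 10515218 and 7438585 reads in the untreated group and 9846807 and 9498316 at 30 min. In the smallest of these libraries, 3 reads over 1 kb of exon correspond to 0.403 FPKM, a floor that covers counting error only.

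The 2 libraries at 30 min stood apart from each other. Introns took 8.06% of the reads of the larger and 4.68% of the smaller, against 5.6% and 5.94% in the untreated libraries. Among 9142 genes with at least 50 exonic reads per library on average, 593 (6.49%) differed by more than 2-fold between the libraries at 30 min, and 1 (0.0109%) between the untreated ones. Over introns these numbers were 300 (13.9%) and 4 (0.185%) of 2162 genes. Relative to the untreated libraries, the exonic values of the larger library went with low GC content of the transcript (Spearman rho -0.666 across 8805 genes, which are not independent) and with exonic length (0.459). Those of the smaller library went with GC content at -0.188 and with exonic length in the opposite direction (-0.473). The part of these trends in single genes was not tested, so both libraries are given for the genes described in full, and ratios of the authors' deposited table given alone average over this gap. Hepatocyte markers identified the tissue in every library. Of the 9 measured, those with rebuilt exonic reads summed to between 1272 and 2059 FPKM in each library. This sum leaves out abundant markers without a per-library exonic value, such as Alb and Apoa1. Their means in the authors' deposited table were 40641 and 3483 FPKM untreated and 36152 and 2665 FPKM at 30 min.

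**Figure D1:**
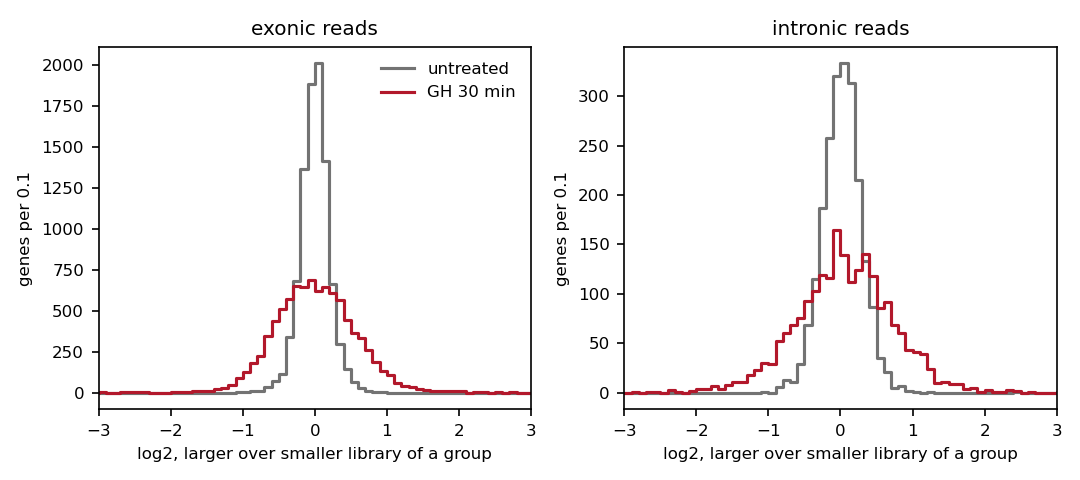
Log2 ratio of the larger to the smaller library within each group (x axis) against the number of genes per 0.1 of log2 (y axis), for exonic reads of 9142 genes and intronic reads of 2162 genes, normalized for depth. The curve of the untreated group is narrow and that of the group at 30 min wide, with standard deviations of 0.2 and 0.58 for exonic reads and 0.274 and 0.715 for intronic reads.

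More genes were called over introns than over exons in the authors' deposited table. With an adjusted p below 0.05 as the call, 64 of the 16657 genes with exonic reads were called for their gene body (0.384%), with 28 above and 36 below the untreated level, in the authors' deposited table. Over introns the authors' deposited table calls 137 of 14753 (0.929%), of which 85 rose and 52 fell. Only 25 genes were called on both measures, 13 higher and 12 lower, with no gene in opposite directions. In 23 of these 25 the intronic change was the larger. A further 112 genes were called over introns only, 72 higher and 40 lower, and 39 over the gene body only, 15 higher and 24 lower. Every call was at least 2-fold. In all 64 and all 137 called genes both libraries at 30 min lay on the same side of both untreated libraries. Among all measured genes this held for 19.4% (both above) and 18.6% (both below) over the gene body. Over introns it held for 15.8% and 23.2%. The calls were made on these same libraries, so the lack of overlap in called genes was largely set by choosing them.

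**Figure D2:**
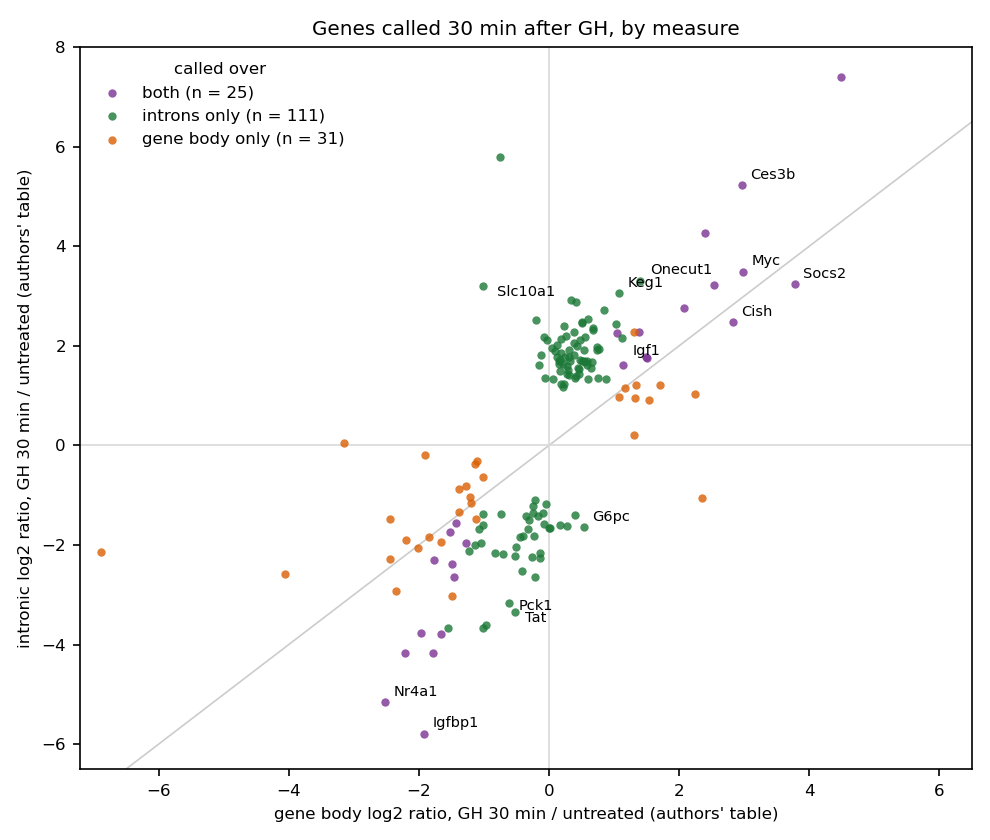
Log2 ratio at 30 min over untreated for the gene body (x axis) and for introns (y axis) in the authors' deposited table, for genes called on both measures (25), over introns only (111 plotted) or over the gene body only (31 plotted). Genes without reads on 1 of the measures are not drawn, and the diagonal marks equal change. The genes called over introns only form 2 clouds, mostly near a gene body log2 ratio of 0, one above and one below the horizontal line. Their place was largely set by choosing them for an intronic call without a gene body call.

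A stricter reading came from testing the rebuilt reads of the 4 libraries with limma. Over exons 0 of 11880 genes passed (707 had an unadjusted p below 0.05, and the lowest adjusted p was 0.179), against the 64 calls in the authors' deposited table. Over introns 58 of 7807 passed, 31 higher and 27 lower, and all 58 were among the authors' 137. Each of the 60 gene body and 130 intronic calls that could be tested had the same direction in limma. Both analyses used the same 4 libraries, so shared calls and directions are not separate support. Without the larger library at 30 min, 1086 genes passed as higher and 1129 as lower over exons, and without the smaller 2105 and 1974, in fits whose spread came from the untreated pair alone. Without the larger untreated library 4 and 8 passed over exons, and without the smaller 9 and 12. Over introns these 2 fits passed 0 higher genes, with 1 and 2 lower.

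Among the genes called higher on both measures were the feedback inhibitors of GH signalling. Socs2, a suppressor of cytokine signalling that limits GH receptor signals, had 23 and 31 exonic reads in the untreated libraries and 117 and 667 at 30 min. Its introns went from 4 and 4 reads to 23 and 55. The smaller library at 30 min held several times the level of the larger on both measures, and the groups did not overlap. Its ratio in the authors' deposited table was 13.8-fold for the gene body (adjusted p = 4.52e-05) and 9.48-fold for introns (adjusted p = 0.00617). Cish, a related inhibitor, stood at 1.72 and 1.87 FPKM untreated and at 5.31 and 18.9 FPKM at 30 min. Its introns rose from 0.153 and 0.605 to 2.74 and 1.59 FPKM, and scaled within introns the larger and the smaller library were alike (log2 2.33 and 2.37), unlike over exons (1.55 and 3.47). The authors' deposited table gives Cish 7.1-fold over the gene body (adjusted p = 1.08e-04) and 5.55-fold over introns (adjusted p = 3.35e-04). Myc, a transcription factor of growth, rose from 1.51 and 1.63 FPKM to 10.3 and 13.5 FPKM, values that agreed better between libraries. The authors' deposited table lists it at 7.89-fold (adjusted p = 1.53e-14).

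Phlda1, a pleckstrin-homology protein, was the most abundant of these genes, with 30.3 and 30.5 FPKM untreated and 105 and 231 FPKM at 30 min. Nrep stood at 1.5 and 1.8 FPKM untreated and at 3.75 and 12.7 FPKM at 30 min, and its introns had 3 and 2 reads before GH and 64 and 51 after it. Ces3b, a carboxylesterase, was at 3.59 and 3.84 FPKM untreated, at 4.28 FPKM in the larger library at 30 min and at 50.5 FPKM in the smaller. The gene body call of Ces3b (adjusted p = 0.0475 in the authors' deposited table) therefore rested on 1 library. Its introns were higher in both, from 0.0979 and 0.225 to 1.71 and 8.44 FPKM. Ces2b, another carboxylesterase, had no intronic read in the untreated libraries and 15 and 25 reads at 30 min. The other genes of this group with given names were Acot3 (a peroxisomal thioesterase), Cyp4a32, Slc16a5, Aacs (which activates acetoacetate for lipid synthesis) and Ankrd37. Acot3 (17.2 and 16.8 against 49.3 and 43.4 FPKM) and Slc16a5 (15.1 and 14.6 against 30.9 and 28.7 FPKM) showed close exonic values of the libraries. Their introns did not, with log2 values of 2.17 and 1.06 for Acot3 and of 2.74 and 1.43 for Slc16a5 in the larger and the smaller library. Genes of the Ces2, Ces3, Cyp4a, Cyp2a, Acot, Orm and Mup families have near-identical copies, so reads can be split among them and their single values are uncertain.

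Among the genes called lower on both measures, Igfbp1 had the lowest intronic ratio and Nr4a1 the lowest gene body ratio in the authors' deposited table. The exonic level of Igfbp1 fell from 42.5 and 48.2 FPKM to 11.4 and 11.7 FPKM, and its introns fell from 138 and 103 reads to 4 and 1. Both libraries at 30 min agreed, and the intronic loss was the larger. The authors' deposited table puts Igfbp1 3.78-fold lower for the gene body (adjusted p = 1.77e-08) and 55.4-fold lower over introns (adjusted p = 5.64e-23). Nr4a1, an orphan nuclear receptor induced by cAMP that drives glucose production, fell from 23.8 and 21.2 to 5.7 and 1.96 FPKM. Its intronic reads fell from 248 and 201 to 10 and 5. Sik1, a kinase that restrains the cAMP coactivators, was at 12.5 and 10.9 FPKM untreated and at 5.72 and 2.45 FPKM at 30 min.

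Several of the other falling genes belong to inflammation. The chemokine Ccl2 was at 8.97 and 11 FPKM untreated and at 1.64 and 2.48 FPKM at 30 min. Icam1, an adhesion molecule for leukocytes, was at 19.4 and 19.2 FPKM against 6.48 and 8.79 FPKM. Bcl3, a nuclear partner of NF-kB, was at 22.6 and 17.2 FPKM against 3.87 and 9.47 FPKM. Marco, a scavenger receptor of Kupffer cells, fell from 6.08 and 4.54 to 1.43 and 1.54 FPKM, with intronic reads lower by a log2 ratio of -4.17 in the authors' deposited table. It was the 1 marker called of 15 measured for Kupffer cells and macrophages, and the summed level of that list was 310 and 312 FPKM untreated and 268 and 280 FPKM at 30 min. In bulk tissue fewer cells of a type and less RNA per cell cannot be told apart. Efna1, Gbp5, Osgin1 and Cyp2a4, a P450 of female liver, completed the named genes.

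The largest set was the genes called over introns alone, with intronic change and no called change over exons. In 94 of the 112 the gene body adjusted p was 1 in the authors' deposited table, and in 80 the gene body ratio was within 1.5-fold. The gene body ratio lay on the side of the intronic one in 98 genes and on the other side in 13. In the remaining gene, Zfp804b, no exonic read was found. In the authors' deposited table the median log2 ratio of the 40 lower genes was -1.74 for introns and -0.34 for the gene body. For the 72 higher genes these medians were 1.82 and 0.38. Choosing genes by an intronic call without a gene body call largely set these medians, and the gene body p-values and narrow ratios above. The exonic reads of both libraries at 30 min lay above both untreated libraries in 38 of 71 of the higher genes and below them in 27 of 37 of the lower. Among all measured genes these shares were 19.4% and 18.6%. The larger intronic change was in the smaller library at 30 min for 61 of the 72 higher genes and 21 of the 40 lower. Over all measured genes the medians were 0.02 for the gene body and -0.06 for introns.

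Of the 40 genes called lower over introns only, 4 are in the list of gluconeogenesis and cAMP or FOXO targets (G6pc, Pck1, Sds and Tat). That list, chosen with earlier results of these data known, has 19 members among the 6913 genes measured over introns. Tat, tyrosine aminotransferase, lies at chr8:112514335-112523704 (mm9) and had 1074 and 856 intronic reads untreated against 201 and 50 at 30 min. Its exonic level was 527 and 535 FPKM untreated and 457 and 259 FPKM at 30 min. The authors' deposited table puts its introns 10.1-fold lower (adjusted p = 4.53e-12) and its gene body 1.45-fold lower (adjusted p = 1). Pck1, the rate-limiting enzyme of gluconeogenesis, at chr2:172978573-172984754 (mm9), had 732 and 551 intronic reads untreated and 149 and 37 at 30 min. Its mRNA stood at 396 and 420 FPKM untreated and at 317 and 200 FPKM after GH, a gene body call that was not made (adjusted p = 1 in the authors' deposited table). For both genes the smaller library at 30 min showed the deeper loss on both measures.

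G6pc, the last enzyme of glucose release, at chr11:101229043-101239217 (mm9), went in different directions on the 2 measures. Its introns fell from 108 and 95 reads to 67 and 17, which is 3.12-fold lower in the authors' deposited table (adjusted p = 0.00964). Its exonic level was 27.4 and 31.9 FPKM untreated and 56.7 and 27.4 FPKM at 30 min, so that only the larger library was above the untreated pair. Slc37a4, the transporter that brings glucose 6-phosphate to that enzyme, had 48 and 34 intronic reads untreated and 17 and 13 at 30 min. Its exonic level was 38.4 and 37.9 FPKM against 27 and 31.4 FPKM. Slc25a47, a mitochondrial carrier of the liver, went from 206 and 143 intronic reads to 37 and 32, a log2 value of -2.86 in the larger and -2.19 in the smaller library when scaled within introns, with 125 and 113 FPKM of exonic signal against 84.8 and 86.8 FPKM. Sds, serine dehydratase, also belonged here, with an intronic log2 ratio of -1.42 in the authors' deposited table (adjusted p = 0.00229), and -1.47 and -1.39 in the larger and the smaller library.

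The promoters of Igfbp1 and G6pc are shown because both genes carry the insulin response sequence that forkhead factors of the FOXO family bind. Capitals mark TGTTTTG, or CAAAACA where it is on the other strand, in the 250 bases before the annotated start in RefSeq's mouse annotation (GRCm38.p6). This motif was added with the results known.
Igfbp1 (chr11:7197537-7197786, plus strand): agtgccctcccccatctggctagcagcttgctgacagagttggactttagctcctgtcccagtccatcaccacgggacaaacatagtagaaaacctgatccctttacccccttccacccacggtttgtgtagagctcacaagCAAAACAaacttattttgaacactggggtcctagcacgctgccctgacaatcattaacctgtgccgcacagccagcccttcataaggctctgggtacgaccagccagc
G6pc (chr11:101367466-101367715, plus strand): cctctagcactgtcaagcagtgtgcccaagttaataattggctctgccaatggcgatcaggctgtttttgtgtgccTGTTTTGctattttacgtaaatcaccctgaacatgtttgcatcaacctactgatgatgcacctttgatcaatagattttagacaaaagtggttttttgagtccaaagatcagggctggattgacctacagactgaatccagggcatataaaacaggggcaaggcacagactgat
The match starts 108 bases before the start of Igfbp1 and 174 bases before that of G6pc. On either strand, TGTTTTG was present in 6.38% of 27025 genes with such a window, and in 2 of the 31 matched genes with lower introns only (6.45%). It was in 1 of 9 matched genes lower on both measures (11.1%, Igfbp1) and in 4 of 19 lower over the gene body only (21.1%). Among the higher sets it was in 4 of 61 for introns only (6.56%), 0 of 7 for both and 0 of 12 for the gene body only. A match describes the letters in this window, not a bound site. The forkhead motif TGTTTAC was in 3.54% of all genes and in 2 of these 31 (6.45%).

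Slc25a22, a mitochondrial glutamate carrier, had 117 and 75 intronic reads untreated and 30 and 18 at 30 min. Insig1, a sterol-regulated membrane protein, and Dgat2, an enzyme of triglyceride synthesis, had intronic log2 ratios of -1.60 and -1.58 in the authors' deposited table, with gene body ratios of 0.17 and -0.08. The larger and the smaller library were alike over the introns of Insig1 (-1.60 and -1.60) and apart over those of Dgat2 (-1.15 and -2.28). Inmt was expressed at 918 and 875 FPKM untreated and at 767 and 970 FPKM at 30 min, while its introns went from 393 and 259 reads to 142 and 97. Orm2, an acute-phase glycoprotein, had 548 and 384 intronic reads untreated and 85 and 117 at 30 min. Its exonic level showed the gap between the libraries, with 226 and 204 FPKM untreated and 39.1 and 329 FPKM at 30 min. Lcn2, an iron-binding acute-phase protein that neutrophils also make, was at 82.6 and 66.7 FPKM against 11.3 and 52.8 FPKM, with an intronic log2 ratio of -2.01 in the authors' deposited table.

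Nr1d1 (REV-ERB alpha) and Dbp, transcription factors of the clock, had intronic log2 ratios of -2.13 and -1.38 in the authors' deposited table. Their gene body ratios of -1.23 and -1.01 did not pass (adjusted p = 0.0734 and 0.106). Exonic Nr1d1 was 45.9 and 43 FPKM untreated and 12.5 and 23.8 FPKM at 30 min, with no overlap between the groups. Atf4, a transcription factor of the stress response, Mknk2, Gjb2 (a gap junction protein), Krt8 (a keratin of hepatocytes), Cyp2a5 and Mup21 were also called lower over introns and not over the gene body. Exonic Mup21 was nevertheless below the untreated level in both libraries, with 180 and 217 FPKM against 68.6 and 126 FPKM. Genes of leukocytes among them were Siglece, Csf3r, Rac2 and Adam8, and the summed level of neutrophil markers was lower in the same libraries. Csf3r is itself 1 of these markers. Of 5 markers measured over the gene body 0 were called, and of 3 measured over introns Csf3r alone was. The summed exonic level of the 12 listed markers in the table was 36.2 and 35 FPKM untreated and 6.89 and 21.9 FPKM at 30 min. S100a8 stood at 15.5 and 14.4 FPKM against 2.85 and 8.59 FPKM, whereas Mpo and Elane were at or near 0 in all 4 libraries. The part of neutrophil content in the leukocyte and inflammatory genes was not tested.

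**Figure D3:**
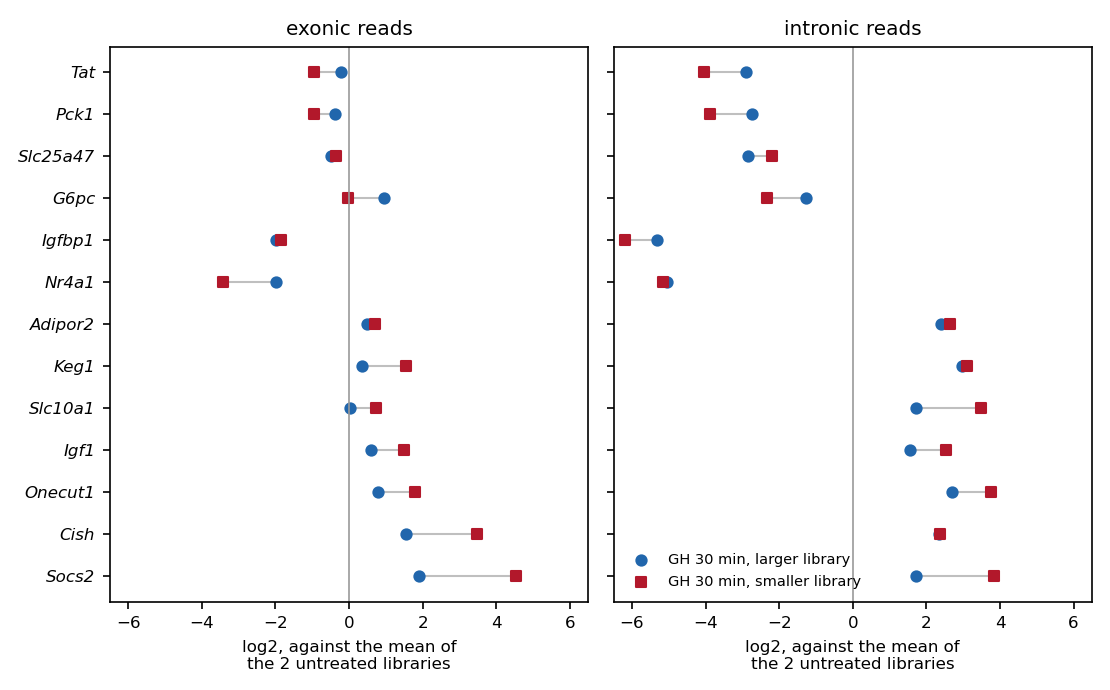
Log2 level of each library at 30 min against the mean of the 2 untreated libraries (x axis), for exonic reads and intronic reads of 13 genes (y axis). Circles are the larger library and squares the smaller. For Tat, Pck1, Slc25a47 and Igfbp1 both libraries lie further left over introns than over exons, while for Adipor2, Keg1 and Slc10a1 both lie further right over introns. The genes drawn were chosen with earlier results of these data known.

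Among introns that rose, classical GH targets stood beside metabolic genes. Igf1, a hormone of the liver through which GH drives body growth, had 32 and 44 intronic reads untreated and 183 and 196 at 30 min. Its exonic level was 12.1 and 13.4 FPKM against 19.3 and 33.8 FPKM. Scaled within each measure, the larger and the smaller library stood at log2 values of 1.55 and 2.53 over introns and of 0.59 and 1.49 over exons, so the smaller was the higher on both. In the authors' deposited table its introns were 4.45-fold higher (adjusted p = 0.00128) and its gene body was 2.17-fold higher (adjusted p = 0.118). Onecut1 (HNF6), a liver transcription factor, had 17 and 2 intronic reads untreated and 92 and 105 at 30 min, 9.92-fold higher in the authors' deposited table (adjusted p = 1.50e-05). Its exonic reads were 32 and 33 against 64 and 116, a change that was not called (adjusted p = 0.182 in the authors' deposited table). Keg1, an acyltransferase-like gene of kidney and liver, had 129 and 93 intronic reads untreated and 1373 and 816 at 30 min, 8.36-fold higher in the authors' deposited table (adjusted p = 5.90e-17). Exonic Keg1 was 50.6 and 56.2 FPKM against 68 and 148 FPKM.

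Slc10a1 (NTCP), the transporter that takes bile acids up from blood, had 42 and 24 intronic reads untreated and 168 and 314 at 30 min. Its exonic level of 83.7 and 89.6 FPKM against 88.2 and 134 FPKM was not called (adjusted p = 1 in the authors' deposited table). Adipor2, a receptor for adiponectin, had 97 and 87 intronic reads untreated and 772 and 495 at 30 min, 5.83-fold higher in the authors' deposited table (adjusted p = 9.85e-11). Exonic Adipor2 was at 71.4 and 73.4 FPKM against 101 and 111 FPKM. Acsl1, which activates long-chain fatty acids, had 178 and 160 intronic reads against 849 and 488. Cyp4a10 and Cyp4a12a, fatty acid hydroxylases, had intronic log2 ratios of 2.19 and 1.77 in the authors' deposited table, with gene body ratios of 0.26 and 0.31. In the larger and the smaller library the intronic log2 value was 2.60 and 1.55 for Cyp4a10 and 1.47 and 2.00 for Cyp4a12a. Ddc, an aromatic amino acid decarboxylase, Akr1c19, an aldo-keto reductase, and Fmo2, a flavin monooxygenase, stood at 2.71, 2.48 and 1.94 over introns in the authors' deposited table. For these 3 genes the smaller library was the higher, with 2.01 and 3.14 for Ddc, 1.84 and 2.88 for Akr1c19 and 1.37 and 2.30 for Fmo2. Prkaa2, a catalytic subunit of the energy sensor AMPK, had 4 and 5 intronic reads untreated and 44 and 36 at 30 min. Arid5b, Hipk2, Dsp, Txn1, Cyp2c68, Abhd17b, Olfml1, Synj2bp and Atrn were further members with a body level of at least 1 FPKM. The nuclear receptor genes Pparg and Thrb, the prolactin receptor gene Prlr and Apob, the protein of very-low-density lipoprotein, were also members, with intronic log2 ratios of 1.91, 1.69, 1.42 and 1.36 in the authors' deposited table. Their lowest value in a single library was 1.80, 1.05, 1.23 and 1.16.

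Windows of Slc10a1 and Keg1 are shown because they hold the STAT5 motif TTCNNNGAA, here in capitals, in the 250 bases before the start (RefSeq, GRCm38.p6). Slc10a1 has 2 annotated starts, and the one with the motif is printed.
Slc10a1 (chr12:80968706-80968955, minus strand): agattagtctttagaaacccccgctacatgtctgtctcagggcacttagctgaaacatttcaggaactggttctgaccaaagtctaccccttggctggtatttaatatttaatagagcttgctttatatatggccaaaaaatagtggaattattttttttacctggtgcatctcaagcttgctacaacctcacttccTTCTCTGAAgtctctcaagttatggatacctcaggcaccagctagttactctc
Keg1 (chr19:12695540-12695789, plus strand): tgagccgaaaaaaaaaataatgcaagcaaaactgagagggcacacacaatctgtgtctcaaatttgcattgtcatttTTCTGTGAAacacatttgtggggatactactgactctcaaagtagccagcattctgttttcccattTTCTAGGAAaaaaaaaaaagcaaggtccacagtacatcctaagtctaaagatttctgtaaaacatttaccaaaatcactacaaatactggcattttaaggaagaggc
The motif starts 53 bases before the start of Slc10a1, and 173 and 107 bases before that of Keg1. On either strand it was found in 8.13% of the 27025 genes with a window, in 11 of the 61 matched genes whose introns alone rose (18%) and in 1 of the 31 whose introns alone fell (3.23%). Among genes called on both measures 0 of 7 matched higher ones held it and 2 of 9 lower ones (22.2%, Gbp5 and Icam1). Among those called over the gene body only these were 0 of 12 and 3 of 19 (15.8%). The differences between these shares were not tested.

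Genes called higher over introns alone were long. Their median length from start to end was 79.1 kb (quartiles 33.8 and 164 kb), and 28 of 72 were at least 100 kb, among them Immp2l at 1306 kb. The 40 lower ones had a median of 8.03 kb (quartiles 5.58 and 17 kb), with none over 50.5 kb. The genes called higher or lower on both measures had medians of 7.42 and 9.16 kb. Over all 14753 genes with intronic reads the median was 23.5 kb, and 13.7% were at least 100 kb. Of the 72 higher genes 40 had at least 1 FPKM over exons and 0.0561 FPKM over introns, with a median of 37.4 kb and 3 genes of 100 kb or more. All 6913 genes measured in this way had a median of 14.7 kb. Intronic ratios of all measured genes moved with length as well. In the authors' deposited table the median intronic log2 ratio was -0.21 for genes under 10 kb and 0.14 for those of 100 kb or more. In the libraries at 30 min taken singly, it went from -0.39 to 0.18 in the larger and from -0.06 to 0.08 in the smaller. Across 2080 genes, which are not independent, intronic change went with start-to-end length at a Spearman rho of 0.353 in the larger library and 0.219 in the smaller. Its correlation with GC content was -0.409 and -0.238. With trends along GC content, exonic length and start-to-end length removed, limma passed 16 genes with higher and 20 with lower introns of 7487 tested, in place of 31 and 27 of 7807.

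**Figure D4:**
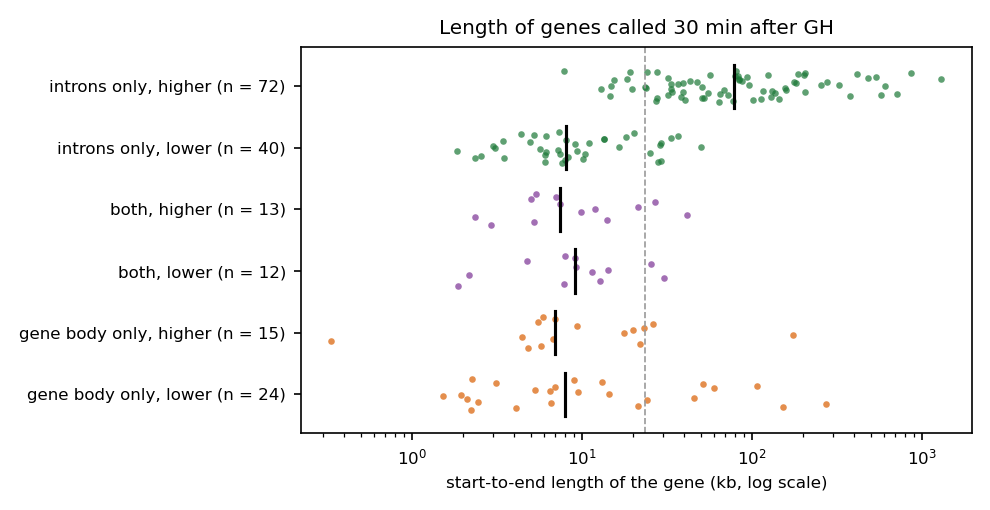
Start-to-end length in kb (x axis, log scale) of each gene called at 30 min, by measure and direction (y axis). Points are genes, black bars are medians, and the dashed line is the median of all 14753 genes with intronic reads, 23.5 kb. The genes called higher over introns only have the highest median of the 6 sets, 79.1 kb.

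Genes called over the gene body alone had fewer intronic reads. Of these 39, 8 had no intronic read in either group, and the 31 others had a median of 40 intronic reads over the 4 libraries, against 254 for the genes called over introns only. Cebpb, an intronless gene of a transcription factor of the acute phase and gluconeogenesis, fell from 83.1 and 63.5 to 12.4 and 21.8 FPKM, 4.1-fold in the authors' deposited table (adjusted p = 3.25e-06). Fzd7, an intronless Wnt receptor gene, rose from 2.25 and 2.32 to 6.15 and 9.72 FPKM. Malat1, a long nuclear RNA with no intronic read here, was at 51.4 and 57.4 FPKM against 99 and 141 FPKM and was called higher. Cxcl10, an interferon-induced chemokine, was at 12.3 and 14.1 FPKM untreated and at 2.86 and 2.11 FPKM at 30 min. Tnfaip3, an inhibitor of NF-kB, was at 4.39 and 5.27 against 1.3 and 0.985 FPKM. Gadd45b, a stress-inducible gene, was at 5.71 and 6.58 against 0.481 and 1.66 FPKM. Intronic reads of Cxcl10 were 14 and 7 untreated and 1 and 2 at 30 min, a log2 ratio of -2.93 that was not called in the authors' deposited table (adjusted p = 0.103).

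In the authors' deposited table Irs2, Nr0b2 and Hhex had a smaller change over introns than over the gene body, and Foxa1 a larger one. Irs2, an adaptor of the insulin receptor, was at 6.78 and 7.67 FPKM against 3.77 and 1.99 FPKM, and its introns had 54 and 49 reads untreated and 61 and 15 at 30 min. Nr0b2 (SHP), a repressor induced by bile acids, was at 31.6 and 26 against 9.81 and 11.4 FPKM, and its introns had 43 and 15 reads against 15 and 19. Hhex, a homeobox factor of liver, was called higher, with 27.1 and 27.2 FPKM against 65.7 and 65.4 FPKM, and stood at an intronic log2 ratio of 0.95 (adjusted p = 0.314) in the authors' deposited table. Foxa1, a pioneer factor of liver, was at 3.34 and 3.5 FPKM against 7.58 and 8.79 FPKM and was called higher, and its introns had 3 and 2 reads against 29 and 4, a log2 ratio of 2.27 in the authors' deposited table (adjusted p = 0.418). In 29 of the 31 genes with intronic reads the intronic ratio lay on the side of the gene body change.

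A call on one measure and not on the other does not show that they differ, so the difference of the intronic and exonic log2 change was tested for each gene with limma over the 4 libraries. Of 7554 genes, 5 passed at an adjusted p below 0.05 (0.0662%), and 546 had an unadjusted p below 0.05. Tat stood first, with introns lower than exons by -2.88 ± 0.26 (log2, SE, adjusted p = 0.00464). Pck1 followed at -2.64 ± 0.28 (adjusted p = 0.00913), then G6pc at -2.24 ± 0.29 (adjusted p = 0.0337) and Slc25a47 at -2.14 ± 0.30 (adjusted p = 0.04995). Adipor2 was the 1 gene with a larger intronic rise, 1.93 ± 0.26 (adjusted p = 0.0418). Of the 112 genes called over introns only, 103 could be tested and 5 passed. The side on which their difference lies was largely set by choosing them for an intronic call without an exonic one, so their signs and unadjusted p-values are not given as a result. For the other 98 of these 103, an unlike change over introns and exons was not established by this test. For Igf1 the difference was 1.07 ± 0.32 (adjusted p = 0.436), for Onecut1 2.15 ± 0.69 (adjusted p = 0.474) and for Slc10a1 2.22 ± 0.40 (adjusted p = 0.11).

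Without the larger untreated library Tat and Pck1 still passed (adjusted p = 0.0026 and 0.0143), and without the smaller one they did too (0.00288 and 0.00386, limma). G6pc, Slc25a47 and Adipor2 did not pass in these 2 fits, with adjusted p from limma of 0.0916 and 0.111, 0.15 and 0.206, and 0.535 and 0.206. Their differences stayed near those of the fit to all 4 libraries, with -2.25 and -2.24 for G6pc, -2.13 and -2.11 for Slc25a47 and 1.82 and 2.03 for Adipor2. In an alternative chosen after seeing the data, the trends of each library with GC content, exonic length and start-to-end length were removed. Then 24 genes passed, 10 with higher and 14 with lower introns than exons, and all 5 genes named above were among them. Without the larger untreated library this fit passed 3 with higher and 6 with lower introns, and without the smaller 3 and 5. Tat stood at -2.72 (adjusted p = 1.11e-04) and Adipor2 at 1.85 (adjusted p = 0.00398) in that limma fit. The genes that passed there and not in the fit to all 4 libraries as counted included Igfbp1 (-3.66), Nr4a1 (-2.52), Cyp2a5 (-2.34), Dgat2 (-1.59) and Insig1 (-1.59) with lower introns. They also included Ces3b (2.71), Slc10a1 (2.34), Keg1 (2.19), Cyp4a10 (1.95), Akr1c19 (1.94) and Ddc (1.67) with higher introns. Without trend removal Igfbp1 also passed when either untreated library was left out (limma adjusted p = 0.0143 and 0.00385). Cyp2a5 and Slc10a1 passed without the larger untreated library (limma adjusted p = 0.0159 and 0.0474) and not without the smaller (0.0972 and 0.245).

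Gene lists placed these genes in their pathways. The lists were chosen with earlier results of these data known, so their shares and medians are a description only. Measured members had a mean of at least 1 FPKM over both groups, and over introns also a mean intronic level of at least 0.0561 FPKM, the median of genes above 0. Over all such genes the authors' deposited table calls 0.225% higher and 0.282% lower over the gene body, and 0.752% higher and 0.723% lower over introns. Of 25 measured early targets of GH and STAT5, the authors' deposited table calls 5 higher for the gene body (Cish, Myc, Nrep, Phlda1 and Socs2) and 0 lower. Over introns 7 of 22 were higher, with Igf1 and Onecut1 added, and 1 lower, Gas6, a ligand of the TAM receptors. The list's median log2 ratio was 0.53 over the gene body and 1.35 over introns, against 0.02 and -0.06 for all measured genes in the authors' deposited table. In the larger and the smaller library alone it was 0.32 and 0.35 over exons and 0.66 and 1.21 over introns. Several genes known to respond to GH in other settings were not called. Socs3, a cytokine-induced inhibitor, was at 35.7 and 36.2 FPKM against 25.8 and 42.8 FPKM. Igfals, which carries IGF in plasma, was at 9.55 and 9.62 against 11.9 and 29.2 FPKM, and Bcl6, a repressor, at 7.61 and 7.49 against 3.46 and 5.38 FPKM. Ghr, the GH receptor, was at 88.2 and 98.2 against 116 and 112 FPKM, and Cux2 had 9 or fewer exonic reads in each library. Of the 17 JAK and STAT components measured, 0 were called on either measure in the authors' deposited table.

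The gluconeogenesis list, with cAMP and FOXO targets, had 5 of 28 gene bodies lower (Cebpb, Igfbp1, Irs2, Nr4a1 and Sik1) and 7 of 19 lower over introns in the authors' deposited table. The latter were G6pc, Igfbp1, Nr4a1, Pck1, Sds, Sik1 and Tat, and 0 members were higher on either measure. Its median was -0.21 over the gene body and -0.98 over introns in the authors' deposited table. In the single libraries the intronic median was -0.77 (larger) and -1.72 (smaller). The NF-kB and inflammatory list had 9 of 29 lower over the gene body (Bcl3, Ccl2, Cxcl10, Cxcl13, Hcar2, Icam1, Il1b, Tlr2 and Tnfaip3) and 3 of 25 over introns, with 0 higher, in the authors' deposited table. Its median was -0.74 and -1.39 in the authors' deposited table, with the summed level of neutrophil markers lower in the same libraries as given above. Clock genes had 0 of 18 called over the gene body and 2 of 12 lower over introns in the authors' deposited table.

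Most other lists had few calls. Of 26 acute-phase proteins 0 were called over the gene body and 2 fell over introns (Lcn2 and Orm2) in the authors' deposited table, and the exonic median was -0.68 in the larger library at 30 min and 0.12 in the smaller. Lipogenesis had 1 of 17 lower over introns, Dgat2, in the authors' deposited table. Acaca, which makes malonyl-CoA for fatty acid synthesis, lay below the level for measured introns and was called 2.55-fold higher there (adjusted p = 0.03). PPARA targets had 1 of 29 gene bodies higher (Acot3) and 3 of 26 introns (Acot3, Acsl1 and Cyp4a10) in the same table. Female-biased genes had 2 higher (Acot3 and Ces3b) and 1 lower (Cyp2a4) of 28 gene bodies in the authors' deposited table. Over introns 3 of 16 female-biased genes were higher (Acot3, Ces3b and Fmo2) and 1 lower (Cyp2a4) in that table, with 2 more called higher below the level for measured introns. Of the male-biased genes 0 of 25 gene bodies were called, and over introns 1 of 20 was higher (Cyp4a12a) and 1 lower (Mup21). Their exonic median was -0.57 in the larger library and 0.33 in the smaller. The lists of interferon response genes, ribosome biogenesis genes and heat shock proteins had 0 members called on either measure (of 24, 35 and 18 gene bodies measured) in the authors' deposited table. Cxcl10 and Gbp5, which interferon also induces and which were called lower, are not in the interferon list. Neither is Irgm2, an interferon-inducible GTPase called higher over introns (log2 1.70, adjusted p = 0.0387 in the authors' deposited table). Immediate-early factors had 1 member lower, Nr4a1, of 16 measured over exons and 11 over introns in the authors' deposited table. Among them Egr1 was at 24.6 and 28.3 against 52.8 and 24.3 FPKM, Junb at 97.4 and 89.1 against 42.9 and 59.2 FPKM, and Fos at 6.68 and 10.7 against 8.64 and 3.12 FPKM, none of them called.

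Values at 90 and 240 min are set beside those at 30 min as a description, because all 3 comparisons share the untreated libraries. For G6pc the gene body log2 ratio in the authors' deposited table was 0.54, -2.06 and 0.53 at 30, 90 and 240 min, and the intronic one -1.64, -2.35 and 0.24. For Slc25a47 these were -0.42, -1.30 and 0.05 over the gene body and -2.52, -2.30 and -0.62 over introns in the authors' deposited table. Tat stood at -0.53, -1.09 and -1.04 over the gene body and at -3.34, -3.31 and -1.42 over introns in the authors' deposited table. Pck1 stood at -0.62, -1.12 and -0.76 against -3.17, -3.58 and -1.75 in the authors' deposited table. Onecut1 was at 1.40, 3.81 and 3.85 over the gene body and at 3.31, 4.53 and 3.77 over introns in the authors' deposited table. Igf1 was at 1.12, 1.53 and 2.45 against 2.15, 2.50 and 2.23 in the authors' deposited table. Slc10a1 stood at 0.42, 0.29 and 1.06 over the gene body and at 2.88, 2.80 and 1.79 over introns in the authors' deposited table.

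**Figure D5:**
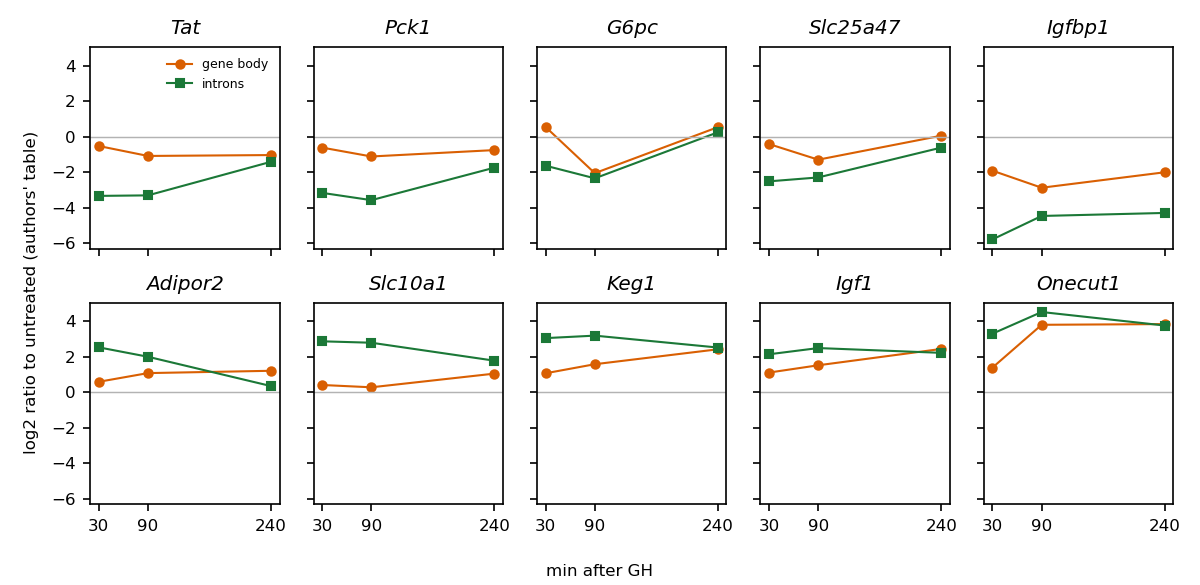
Log2 ratio to untreated in the authors' deposited table (y axis) at 30, 90 and 240 min after GH (x axis), for the gene body (circles) and introns (squares) of 10 genes. All times share the untreated libraries. At 30 min the intronic point lies farther from 0 than the gene body point in each of the 10 genes. This was largely set by the choice of genes, since all but Igfbp1 were called over introns only. At 240 min the points of Igf1, Onecut1, Keg1, G6pc and Tat lie close together.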

How the data were processed

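FPKM means per group over the gene body and an intronic FPKM signal, expression ratios of treated over untreated and adjusted p-values were deposited by the authors, per the file headers. The method of adjustment is not stated there. Per the labels' protocols, poly-A RNA went into strand-specific libraries. The submitters' processing notes name TopHat2, featureCounts, edgeR and the build mm9. Whether counting used strand is not stated, so values of overlapping genes are uncertain.

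Library totals and gene lengths giving whole reads in all 4 groups were searched for (exonic length 20 to 60000 bases). The rebuilt means differed from the deposited ones by at most 2.8e-08 of their value, and lengths were unique for 99.6% (gene body) and 99.1% (introns) of genes. Others have no per-library value. Of 12397 single-accession genes with a length in a reference annotation of another build, 51.2% had a rebuilt exonic length within 1% of it. For 94.4% of genes with intronic reads the length found was start-to-end minus exonic length.

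Rebuilt reads were tested with limma 3.58.1 (voom, R 4.3.3) in genes with at least 40 reads over 4 libraries, scaled by median ratios within exonic and within intronic reads, Benjamini-Hochberg adjusted. Intronic change is relative to all introns of a library. The planned description of the authors' calls stayed the main result, and limma, leaving out libraries and trend removal (splines on GC content, exonic and start-to-end length) were added after seeing the data. Rebuilding and limma were tested on simulated data. The p-values measure only the spread between pools.

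Members and lists were chosen with earlier results of these data known. Named genes followed a rule: the 12 largest changes in each direction called over the gene body, the 20 largest called over introns only with at least 1 FPKM and an intronic level above the median, all called on both, up to 8 in each direction called over the gene body only, a set of GH-related genes, and up to 4 per list. Not all are printed, and genes given with clone names were counted, not named. Thrb, Pparg, Adam8, Sds, Gas6, Immp2l, Zfp804b, Prkaa2, Malat1, Irs2, Irgm2, Inmt, Il1b and Tlr2 lie outside this rule and were chosen after their values were seen. The intronic median was 0.0674 FPKM in the higher group. Alternatives were an adjusted p below 0.01, at least 2-fold, a filter on low values, pseudocounts of 1, 0.1 and 0.01 on quotients of means, and unfiltered or centred list medians. GC content came from GENCODE transcripts (vM21), of another build, as a property only. Python 3.11.15, numpy 2.4.6, pandas 2.3.3 and scipy 1.17.1 were used. One withheld item is not reported here.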

Additional observations from a re-analysis of the deposited data

How the results depend on the processing

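Counts in the authors' deposited table are given first, with higher before lower. At an adjusted p below 0.01 in place of 0.05, gene body calls went from 28 to 15 (higher), intronic ones from 85 and 52 to 42 and 29, introns only from 72 and 40 to 32 and 18, gene body only from 15 to 6 (higher), and calls on both measures from 25 to 15. A filter on low values left 55 higher introns, 42 of them introns only. A minimum of 2-fold changed no count. With limma on rebuilt reads, an alternative chosen after seeing the data, 0 and 0 gene bodies passed (707 with an unadjusted p below 0.05), 31 and 27 introns, 31 higher introns only, 0 and 0 gene bodies only, and 0 on both. With GC and length trends removed these were 1 and 0, 16 and 20, 16 and 20, 1 and 0, and 0, and genes with unlike change went from 1 and 4 to 10 and 14. Leaving out 1 rebuilt library at a time, limma gave 4 to 2105 and 8 to 1974 gene bodies, 0 to 673 and 1 to 521 introns, 0 to 433 and 0 to 246 introns only, 4 to 1780 and 7 to 1657 gene bodies only, 1 to 611 on both, and 0 to 588 and 3 to 361 with unlike change. The high ends came without a library at 30 min, where the lone library is assumed to vary like the untreated pair. Of 48 list medians, 20 moved by more than the spread between libraries without the larger library at 30 min and 18 without the smaller. No called ratio of a named gene turned its direction, but with trends removed the intronic minus exonic difference of Grm8, called over introns, went from 0.57 to -0.15. No paired analysis was possible because the rebuilt libraries carry no pool number. Precision is limited by 2 pools per group, by the gap between the libraries at 30 min, and by few intronic reads in short or weakly expressed genes.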
